A study of Mus musculus with 8 samples.

Results

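Megabase stretches of the mouse genome without a protein-coding gene were examined for the gain of 5-hydroxymethylcytosine (5hmC) after induction of a TET3 catalytic domain. The autosomes (chromosomes 1 to 19) were laid out in windows of 1 Mb, and a window was taken as gene-free when no protein-coding gene span of GRCm38 overlapped it and it held at least 100 calls over the 8 libraries. Of 2412 autosomal windows with calls, 209 were gene-free, and the minimum of 100 calls removed none of them, since the poorest held 120. They held 49830 CpG calls, which is 2.69% of the 1849087 calls of the series. Windows of 10 kb with 200 or more calls, 18 on the autosomes, were left out as stacks of reads.

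The cells were mouse embryonic stem cells (ESC) in which TET1, TET2 and TET3 are inactivated (TET-TKO) and which carry, on a PiggyBac transposon, a doxycycline-inducible catalytic domain of mouse TET3 linked to an mCherry reporter. Every group had the same deletions and transposon and was grown in medium with 50 µg/ml ascorbate. The groups compared were 3: untreated cells (0 h, 3 libraries, A to C), cells given 1 µM doxycycline for 6 h (2 libraries, A and B) and for 12 h (3 libraries, A to C). The labels name 1 line, so nothing here speaks to other clones, and the catalytic domain, not the whole enzyme, is expressed. They do not say whether libraries of a group came from separate cultures, so p-values measure the spread between these libraries, which may be technical. DNA calls carry no marker with which the labelled cell type could be checked. Libraries held 75023 to 485941 calls.

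TET enzymes oxidise the methyl group of 5-methylcytosine, mostly at CpG sites, to 5hmC and then further, a route to loss of DNA methylation. Mammalian genomes hold long stretches with few or no protein-coding genes, often called gene deserts, which are poor in CpGs and are largely methylated, whereas CpG islands lie mostly at gene promoters and are kept free of methylation. In ACE-seq (APOBEC-coupled epigenetic sequencing) 5hmC is glucosylated and thereby protected, and an APOBEC enzyme deaminates cytosine and 5-methylcytosine, so an undeaminated call stands for 5hmC plus the background of incomplete deamination. The level is the percentage of CpG calls that are undeaminated, and untreated cells, which lack the inducing drug, give its background.

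The gene-free windows were not empty. They held 343 lncRNA models in 140 windows, 501 pseudogenes in 181 windows, 17 microRNA genes in 15 windows and, in 5 windows of chromosomes 6, 12 and 14, 344 immunoglobulin or T cell receptor segments (a model that reaches into 2 windows counts in both). Only 3 windows had no gene model of any kind. The 209 windows formed 148 stretches: 102 stood alone, 33 stretches had 2 adjoining windows, 11 had 3 and 2 had 4. Chromosome 1 held most (22) and chromosome 19 fewest (2).

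The windows gave few CpG calls, although the CpG content of their sequence was not measured. A gene-free window held a median of 204 calls (120 to 964), against a median of 685 in the other autosomal windows. Reads in them carried 1.67 CpG calls on average, against 2.22 over all reads, and reads with 1 to 3 CpGs gave 79.4% of gene-free calls but 62.3% of all calls. Reads with 8 or more CpGs gave 4.17% of gene-free and 11.9% of all calls. At the start sites of transcripts in these windows, CpGs were counted in the sequence and were few. RefSeq promoters (GRCm38.p6, 250 bases before to 50 after a start) numbered 281 in gene-free windows, of 244 genes, all lncRNA genes. They held a median of 2 CG dinucleotides (0 to 18), against a median of 7 in 31115 other autosomal promoters and of 4 in 11030 other lncRNA promoters. At least 10 CG dinucleotides stood in 4.27% of them, against 44.3% of the other promoters and 19.5% of the other lncRNA promoters. The motif searched was CG, which reads the same on both strands.

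The 4 promoters with 6 or more calls at 12 h are shown, because they were read most often at 12 h, and Gm41009 is added as a promoter with the median number of CpGs. All are from RefSeq, 5′ to 3′ on the strand of the gene, and capitals mark each CG.
Gm46244 (chr1:113145271-113145570, plus strand): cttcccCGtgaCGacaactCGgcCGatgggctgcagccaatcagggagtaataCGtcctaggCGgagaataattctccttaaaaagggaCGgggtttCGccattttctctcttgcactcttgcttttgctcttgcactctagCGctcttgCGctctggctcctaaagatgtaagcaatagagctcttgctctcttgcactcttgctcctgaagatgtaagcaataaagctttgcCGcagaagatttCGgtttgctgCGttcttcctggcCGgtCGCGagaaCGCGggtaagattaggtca
4930402F11Rik (chr7:69495844-69496143, plus strand): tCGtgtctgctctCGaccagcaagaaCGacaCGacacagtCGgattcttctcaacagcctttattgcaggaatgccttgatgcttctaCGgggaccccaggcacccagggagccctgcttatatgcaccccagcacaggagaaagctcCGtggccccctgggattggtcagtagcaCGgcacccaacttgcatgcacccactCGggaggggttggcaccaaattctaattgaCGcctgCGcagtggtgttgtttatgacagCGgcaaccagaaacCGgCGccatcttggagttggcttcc
Gm29065 (chr1:76019194-76019493, minus strand): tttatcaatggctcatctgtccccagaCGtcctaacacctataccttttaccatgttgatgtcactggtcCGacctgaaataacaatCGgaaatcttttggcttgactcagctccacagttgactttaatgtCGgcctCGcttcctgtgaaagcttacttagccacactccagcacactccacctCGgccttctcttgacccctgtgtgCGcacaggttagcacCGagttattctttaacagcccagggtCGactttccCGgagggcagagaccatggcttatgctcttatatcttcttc
Gm31416 (chr10:66834290-66834589, minus strand): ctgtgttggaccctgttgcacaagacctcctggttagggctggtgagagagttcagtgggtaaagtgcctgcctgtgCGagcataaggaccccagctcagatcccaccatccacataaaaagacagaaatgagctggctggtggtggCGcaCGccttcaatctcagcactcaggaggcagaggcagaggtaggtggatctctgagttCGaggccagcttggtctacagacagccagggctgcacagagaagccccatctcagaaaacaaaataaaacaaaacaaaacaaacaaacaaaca
Gm41009 (chr13:82001618-82001917, plus strand): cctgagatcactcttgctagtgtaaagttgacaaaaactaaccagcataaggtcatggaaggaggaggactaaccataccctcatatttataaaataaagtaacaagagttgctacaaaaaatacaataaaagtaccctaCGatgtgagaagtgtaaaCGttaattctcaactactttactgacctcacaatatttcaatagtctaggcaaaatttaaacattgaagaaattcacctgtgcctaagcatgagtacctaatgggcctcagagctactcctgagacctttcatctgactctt

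In Gm46244, with 18 CpGs, 1 read of library 12 h A covered CpGs 2 to 10 (counted from 1 at the 5′ end of the sequence shown), and the calls at CpGs 5 and 7 were undeaminated and the other 7 deaminated. In 4930402F11Rik, with 14 CpGs, 1 of 8 calls of library 12 h B was undeaminated, at CpG 1. In Gm29065, with 10 CpGs, 4 of 6 calls of library 12 h C were undeaminated, at CpGs 4, 5, 7 and 8. In Gm31416, with 4 CpGs, library 12 h A gave 3 undeaminated of 6 calls and library 0 h A 0 of 3. Both CpGs of Gm41009 were deaminated on the 1 read that covered it, from library 12 h B. Over all 281 promoters, each call counted once, 18 of 61 calls at 12 h were undeaminated (29.5%): 7 of 29 in library A, 3 of 18 in B and 8 of 14 in C. At 6 h they gave 2 of 11 and at 0 h 0 of 21, which allows a level of up to 14.3%. Other autosomal promoters had 6.81% undeaminated at 12 h (of 26999 calls) and other lncRNA promoters 13.0% (of 5913 calls). With 24 reads behind the 61 calls the difference was given no test. Calls in promoters were checked against these sequences, and 99.9% of 52441 fell on a CG.

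After 12 h of doxycycline the gene-free windows rose with the rest of the genome, but to a slightly lower level. In untreated cells their pooled level was 0.929% in library A, 0.817% in B and 1.23% in C. At 6 h it was 5.91% in A and 6.19% in B, and at 12 h 20.5% in A, 22.0% in B and 25.3% in C. Libraries of the 3 times did not overlap. The means were 0.992% ± 0.215 (SD, n = 3) at 0 h, 6.05% ± 0.193 (n = 2) at 6 h and 22.6% ± 2.47 (n = 3) at 12 h. The rise from 0 h to 12 h was 21.6 points, and a two-sided exact permutation test gave p = 0.1, the smallest that 3 libraries against 3 allow. The whole libraries rose by 23.0 points, from 1.13% ± 0.199 to 24.1% ± 2.36.

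**Figure D1:**
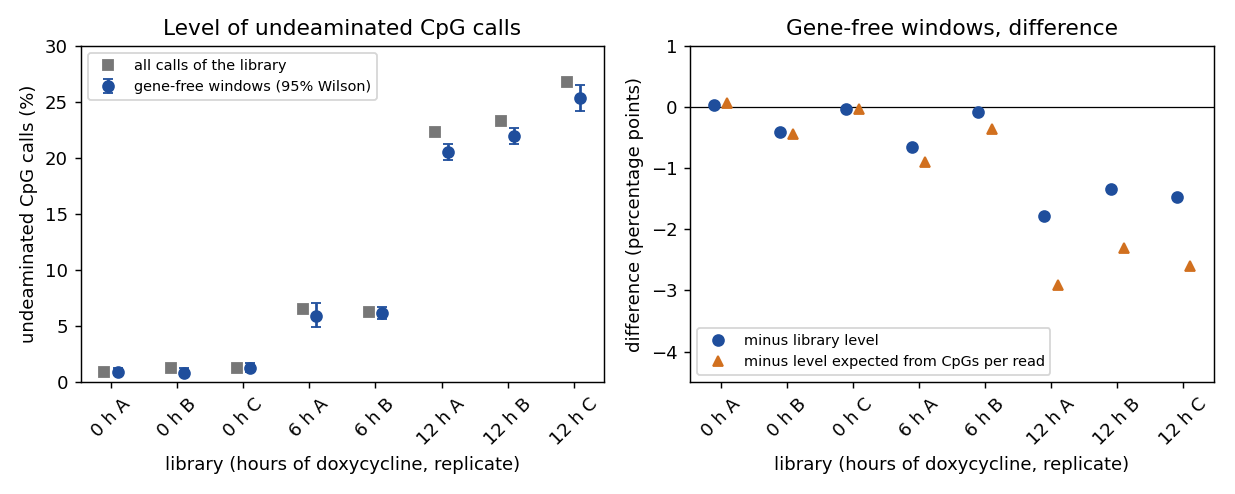
Left, percentage of undeaminated CpG calls in the 8 libraries for all calls (squares) and for the gene-free windows (circles, bars are 95% Wilson intervals). Right, the gene-free level minus the library level (circles) or minus the level expected from the CpGs per read (triangles), in percentage points. The 3 libraries of 12 h lie between -1.78 and -1.33 for the first and between -2.92 and -2.30 for the second, below every other library.

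The level of each library itself varied, so the gene-free level was next taken minus the library level (the deviation). At 0 h the deviation was 0.03 points in A, -0.41 in B and -0.02 in C. At 6 h it was -0.65 in A and -0.08 in B, which overlaps the untreated libraries. At 12 h it was -1.78 in A, -1.33 in B and -1.47 in C, below each of the other 5 libraries. The mean at 12 h was -1.53 ± 0.231 (SD, n = 3) and at 0 h -0.136 ± 0.242 (n = 3), a difference of -1.39 points (exact permutation test, two-sided, p = 0.1, the smallest possible; 0.257 adjusted over the 9 comparisons of levels and deviations between times). Reads of every library come from 3 sequencing runs, and run by run the difference was -1.07, -1.20 and -1.65 points. The deviation depends on the 1 read stack left out of these windows: with no stack left out the difference was -0.246 points (exact p = 0.4). That stack is 1 window of 10 kb on chromosome 2 with 11825 calls, and keeping it brings the gene-free calls to 61655.

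Reads with many CpGs have lower levels in the library, and gene-free windows have few such reads. A level was therefore expected for each library from its levels in 7 classes of CpGs per read and the classes' shares among gene-free calls. The gene-free windows lay 0.07 points above this expectation in library A of 0 h, and -0.45 and -0.03 points from it in B and C. At 6 h they lay -0.89 points from it in A and -0.36 in B. At 12 h the standardised deviation was -2.92 in A, -2.30 in B and -2.60 in C, all below the other 5 libraries. The 12 h mean of -2.61 ± 0.308 (SD, n = 3) differed from the 0 h mean of -0.134 ± 0.275 by -2.47 points (exact permutation test, two-sided, p = 0.1; within the 3 runs -2.19, -2.27 and -2.74). With no stack left out it was -1.47 points (exact p = 0.1). With 1 call taken per read the deviation and its standardised form became -3.30 and -3.29 points.

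The shortfall was not spread evenly over reads. Gene-free windows lay below the library on reads with 1 to 3 CpGs and above it on reads with 8 or more. On reads with a single CpG their 12 h level was 19.01% in A, 21.2% in B and 25.5% in C, against library levels of 23.1, 24.0 and 27.8%. On reads with 2 CpGs it was 20.1, 20.4 and 22.2%, against 24.2, 25.1 and 28.8%. In limma, 12 h minus 0 h and gene-free minus library class, the difference was -3.51 ± 0.437 points (SE; adjusted p = 6.28e-09) with 1 CpG, -4.54 ± 0.507 (adjusted p = 9.61e-10) with 2 and -2.24 ± 0.717 (adjusted p = 0.00506) with 3. It was -1.52 ± 0.812 points (adjusted p = 0.0816) with 4 to 5 CpGs and 1.25 ± 1.17 (adjusted p = 0.292) with 6 to 7. With 1 call taken per read, the class with 3 CpGs did not pass (-2.43 ± 0.928 points, limma adjusted p = 0.0612). All classes come from the same 8 libraries and share their spread in the fit, so these p-values may be far too small.

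On CpG-dense reads the order turned round. With 8 to 10 CpGs the 12 h mean of gene-free reads was 24.6% ± 2.50 (SD, n = 3) and of the library 17.9% ± 2.19, a difference from 0 h of 9.19 ± 1.48 points (SE; limma adjusted p = 8.25e-07). With 11 or more CpGs it was 26.7% ± 7.19 against 6.11% ± 1.45, a difference of 17.3 ± 2.80 points (adjusted p = 8.25e-07). With 1 call taken per read, the class with 8 to 10 CpGs did not pass, at 8.83 ± 3.78 points (limma adjusted p = 0.0740). The class with 11 or more did, at 22.8 ± 3.02 (adjusted p = 0.000340). Behind the last class stood 37 reads from 32 windows, with 429 calls, and no window gave more than 6.29% of them. At 0 h it held only 45, 12 and 12 calls in libraries A, B and C, so its baseline rests on a few reads. At 0 h the gene-free reads with 8 to 10 CpGs had no undeaminated call among 314, which allows a level of up to 0.955%, so their rise is measured against a level of 0. At 6 h these reads stood at 10.7% ± 3.48 (n = 2) and the library at 5.76% ± 0.481, and the difference between them changed by 4.93 ± 1.48 points from 0 h (limma adjusted p = 0.0143), when the gene-free reads lay below the library's 1.26% ± 0.163, while no other class passed at 6 h. At 12 h, 5 of the 7 classes passed (71.4%), 3 below and 2 above the library.

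**Figure D2:**
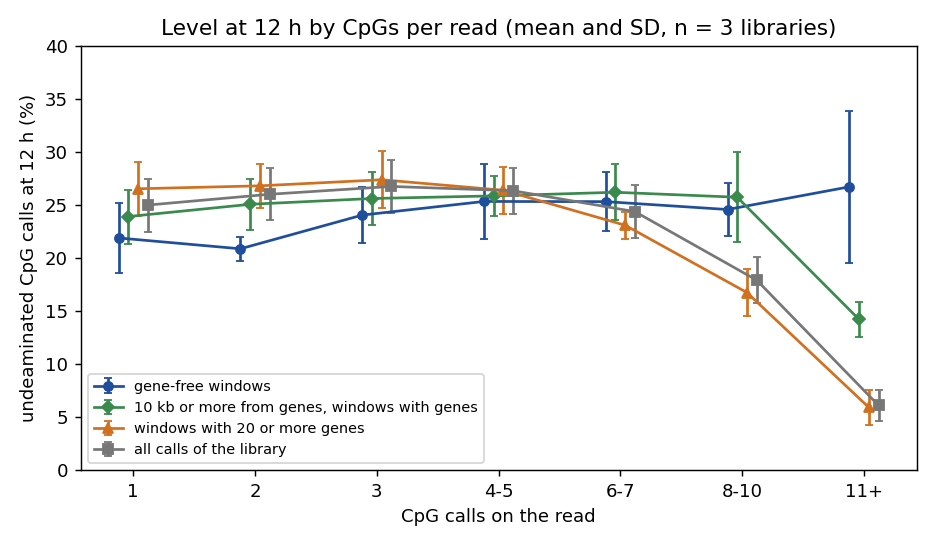
Undeaminated CpG calls at 12 h in percent (vertical) for reads grouped by their number of CpG calls (horizontal), mean and SD of 3 libraries. Gene-free windows (blue) stay between 20.9 and 26.7% in every class, while the library (grey) and windows with 20 or more genes (orange) fall to 6.11 and 5.93% on reads with 11 or more CpGs.

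Set beside other calls away from genes, fewer classes passed. Calls at least 10 kb from any protein-coding gene, but in windows that hold genes, had 12 h means of 23.9% with 1 CpG, 25.1% with 2, 25.7% with 8 to 10 and 14.2% with 11 or more. Against these calls, a comparison chosen after the data were seen, gene-free reads differed by -2.40 ± 0.4998 points (SE; limma adjusted p = 0.000103) with 1 CpG, by -3.57 ± 0.581 (adjusted p = 3.47e-06) with 2 and by 7.98 ± 3.21 (adjusted p = 0.0416) with 11 or more. The difference on reads with 8 to 10 CpGs was 2.67 ± 1.69 points (adjusted p = 0.180), and 3 of the 7 classes passed.

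Windows graded by their number of protein-coding genes placed the gene-free ones at the low end. For windows with no gene, 1 to 4, 5 to 9, 10 to 19 and 20 or more genes, the mean 12 h levels were 22.6, 23.9, 24.7, 24.7 and 23.5%. The deviation of gene-free windows changed by -1.46 ± 0.309 points from 0 h to 12 h (SE; limma over the 5 classes, adjusted p = 9.74e-05). The next class, 1 to 4 genes, changed by -0.12 ± 0.115 (adjusted p = 0.322), the 2 middle classes by 0.61 and 0.53 and the gene-richest by -0.58 ± 0.115 (adjusted p = 5.21e-05). Standardised for CpGs per read, the change was -2.54 ± 0.305 (adjusted p = 5.77e-08) without genes, -0.84 ± 0.113 with 1 to 4 and between 0.30 and 0.60 in the other 3 classes. Of the 5 classes, 4 passed for the deviation (80%) and 5 for the standardised deviation (100%). Differences between the classes were not tested. The 5 classes come from the same 8 libraries and share their spread in the fit, so these p-values may be far too small. For the gene-free windows, the exact permutation test on library values gave p = 0.1 for either deviation.

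**Figure D3:**
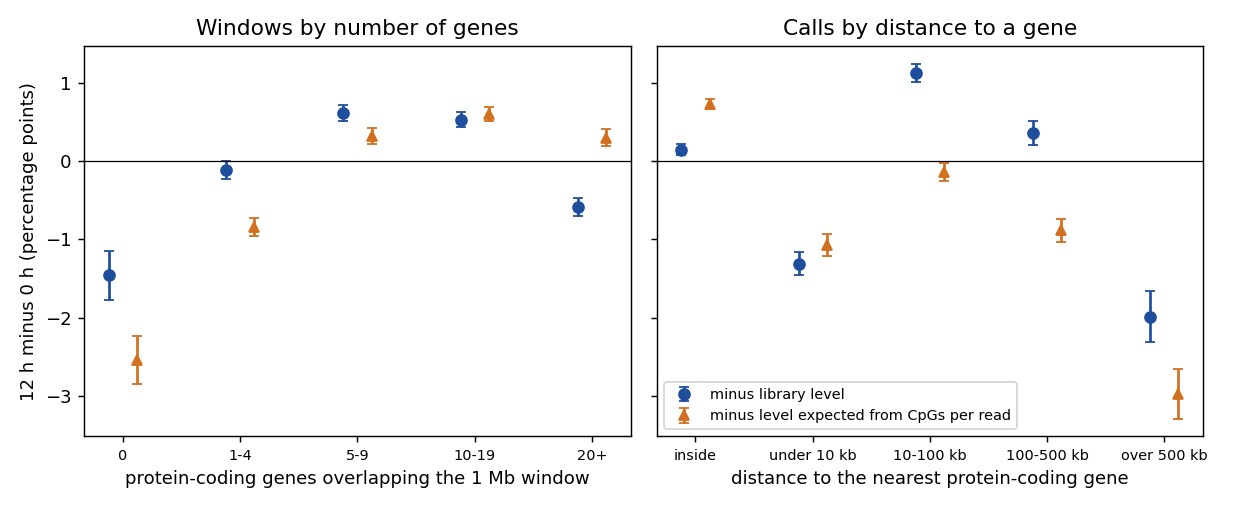
Change from 0 h to 12 h, in percentage points with SE from limma, of the level minus the library level (circles) and minus the level expected from CpGs per read (triangles). Left, windows by number of protein-coding genes. Right, calls by distance to the nearest protein-coding gene. The class without genes (-1.46 and -2.54) and calls over 500 kb from a gene (-1.99 and -2.98) lie lowest. Most calls over 500 kb from a gene lie in the windows without genes, so the 2 classes overlap.

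By distance to the nearest gene, the calls farthest away lay lowest, but the order did not follow distance. Over all windows, calls more than 500 kb from any protein-coding gene changed by -1.99 ± 0.324 points relative to the library (SE; limma adjusted p = 3.37e-06) and by -2.98 ± 0.314 standardised (adjusted p = 2.36e-09). Of these 43017 calls, 32304 lay in the gene-free windows themselves, so this class largely measures the same calls again and is no separate support. Calls 100 to 500 kb away changed by 0.36 ± 0.154 and -0.88 ± 0.150 points, calls 10 to 100 kb away by 1.13 ± 0.114 and -0.14 ± 0.111. Calls outside genes but within 10 kb of one came next to the farthest, with -1.31 ± 0.146 (adjusted p = 6.88e-09) and -1.07 ± 0.142 points standardised (adjusted p = 1.15e-07). Within the gene-free windows, 32304 calls lay more than 500 kb from a gene and reached 22.0% ± 2.85 at 12 h (SD, n = 3), 16210 calls lay at 100 to 500 kb and reached 23.4% ± 1.60, and 1316 calls lay nearer than 100 kb and reached 27.5% ± 5.40. The nearest calls, in 43 windows at the edges of the gene-free stretches, gave 23.1, 26.0 and 33.5% in the 3 libraries of 12 h, each above its library level, and 0 of 248 calls at 0 h (up to 1.21%). The 275 windows with genes that adjoin a gene-free window had a mean 12 h deviation of -0.51 ± 0.185 points, and -0.78 ± 0.175 standardised.

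All these changes are in percentage points, and the change of the gene-free deviation did not pass on the logit scale. In untreated cells the gene-free windows had 91 undeaminated calls of 9206, also slightly below the library. On the logit scale, which compares odds, the change of the deviation from 0 h to 12 h was 0.00815 ± 0.122 (SE; limma adjusted p = 0.947) and -0.0602 ± 0.121 standardised (adjusted p = 0.623), and no class of CpGs per read passed (2 of 7 at an unadjusted p under 0.05). These logit changes rest on few undeaminated calls at 0 h and have wide SE. They cannot decide whether a change on that scale is absent. The 12 h libraries taken alone lay below their library level on both scales: by -1.54 ± 0.283 points (limma adjusted p = 1.99e-05) and by -0.0874 ± 0.0161 in logits (adjusted p = 2.37e-05), and standardised by -2.60 ± 0.279 points and -0.146 ± 0.0160 in logits (adjusted p = 6.41e-09 and 1.01e-08). In the 12 h libraries the classes with 1, 2, 3, 8 to 10 and 11 or more CpGs passed on both scales.

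Pairs of CpGs on 1 read were compared as a description, without a test. Among reads with exactly 2 CpGs in gene-free windows, both calls were undeaminated in 6.53, 6.92 and 7.31% of reads at 12 h (libraries A, B and C, 1760, 1822 and 739 reads). In the whole libraries the shares were 9.33, 10.0 and 12.2%. Exactly 1 call was undeaminated in 27.9% ± 1.60 of gene-free reads and in 31.0% ± 1.81 of all reads (SD, n = 3). When 1 CpG was undeaminated, its partner on the read was too in 33.1% ± 0.694 of cases, against 40.3% ± 2.02 in the libraries and 40.7% ± 1.55 in windows with 20 or more genes. The gene-free share lay below the library share in each of the 3 libraries, with values of 32.6, 33.9 and 32.9% against 38.6, 39.8 and 42.6%. This share also depends on the level, which on such reads was 20.9% in gene-free windows and 26.0% in the library. How much of the gap follows from the level was not tested. At 0 h the shares ran the other way, 60.5% ± 18.0 against 39.6% ± 8.75, from few undeaminated calls.

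Every one of the 209 windows had a higher pooled level at 12 h than at 0 h. That is not particular to them, since the level also rose in all 1198 windows tested below. Pooled over the 3 libraries, the 12 h level of a gene-free window ranged from 10.7 to 34.4% (median 21.4%). Each exceeded the highest 0 h level of any gene-free window, 9.09%. At 0 h 144 windows had no undeaminated call, and at 6 h 32 had none. The 6 h level exceeded the 0 h level in 169 windows, and the 12 h level the 6 h level in 207. Neither count was made for windows with genes. At 12 h 144 windows (68.9%) lay below the library and 162 (77.5%) below the level expected from CpGs per read, against 51.9% and 54.9% of 2187 windows with genes that had at least as many calls as the poorest gene-free one. The median deviation was -2.16 points in gene-free windows and -0.12 in those with genes. By calls per window, the 98 with under 200 calls had a mean deviation of -2.57 ± 0.790 points at 12 h (SD, n = 3) and the 111 with 200 or more calls of -1.004 ± 0.734, a difference that was not tested.

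Differences between single gene-free windows were close to counting error at this depth. The SD of the 12 h levels over the 209 windows was 4.30 points, and the median counting error of a window 3.60 points. Of the 209, 10 lay above and 5 below the 95% range that counting error alone gives around their common level of 22.0%. Levels in 1 library told little of those in another: across the 209 windows, Pearson's r of the 12 h levels was 0.068 for A against B, 0.049 for A against C and -0.019 for B against C, windows sharing their depth and CpG supply between libraries. By chromosome, the 12 h level of gene-free windows lay below the library on 16 of 19 chromosomes and below expectation on 17, from 20.2% on chromosome 13 to 25.4% on chromosome 10.

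**Figure D4:**
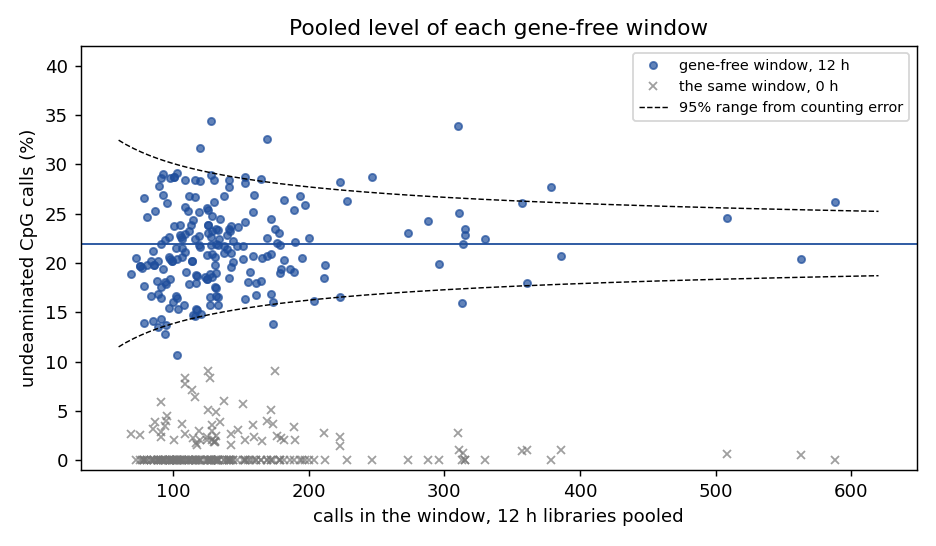
Pooled percentage of undeaminated CpG calls of each gene-free window at 12 h (circles) and 0 h (crosses) against its number of calls at 12 h. The solid line is the common 12 h level of 22.0%, and dashed lines enclose 95% of values under counting error alone. Of 209 windows, 15 fall outside them, and none of the 12 h levels reaches down to the highest 0 h level of 9.09%.

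The highest and the lowest window lay side by side on chromosome 14, in a stretch of 3 gene-free windows between Olfm4, a secreted olfactomedin glycoprotein, and Pcdh17, a protocadherin of the cell surface. In chr14:81000001-82000000, which holds the lncRNA gene Gm41219, 4 of 42, 3 of 34 and 4 of 27 calls were undeaminated at 12 h in libraries A, B and C. In chr14:82000001-83000000, with 1 pseudogene, the counts were 15 of 43, 18 of 57 and 11 of 28, or 34.9, 31.6 and 39.3% against 9.52, 8.82 and 14.8%. Every library of the second window lay above every library of the first. The pair was chosen after its values were seen, and neither window had 20 calls in every library. The second had 10 and was tested among the 1738 windows described next: its deviation changed by 11.7 ± 3.60 points (SE; limma adjusted p = 0.303, unadjusted p = 0.00667).

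Single windows were tested where every library gave at least 20 calls, which 1198 windows did, 5 of them gene-free. None of the 1198 deviated from the library between 0 h and 12 h at an adjusted p under 0.05 (limma; 0% in either direction, 95 above and 44 below at an unadjusted p under 0.05; a quasi-binomial test called 1), and thus 0 of the 5. All 5 gained, as did all 1198 (100%), since every window shares the rise of its library. From 0 h to 6 h, 3 of the 5 gained, against 47.8% of all, and from 6 h to 12 h all 5 did, against 98.9%. Of the 38 gene-free windows with at least 10 calls in every library, among 1738 windows, 0 deviated (3 above and 3 below at an unadjusted p under 0.05). From 0 h to 12 h 37 of the 38 gained (99.7% of all 1738), from 0 h to 6 h 4 (34.2% of all) and from 6 h to 12 h 33 (96.7% of all). The median change of the deviation from 0 h to 12 h was 0.28 points in the 38 and 0.20 over all 1738. The windows that reach these minima are the richest in calls.

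The 5 testable windows are among the richest in calls. The window chr1:35000001-36000000, between Plekhb2, a membrane protein with a pleckstrin homology domain, and Hs6st1, a heparan sulfate sulfotransferase, had the most (964). Its levels were 0% in all 3 untreated libraries (0 of 170 calls, up to 1.76%), 2.17 and 11.9% at 6 h, and 24.2, 28.0 and 26.9% at 12 h, with a change of the deviation of 3.81 ± 2.21 points (SE; limma adjusted p = 0.556). It contains the lncRNA genes 1110002O04Rik, Gm33176 and Gm39622.

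The window chr18:81000001-82000000 (900 calls), between the zinc finger gene Sall3 and the galanin receptor gene Galr1, had 1.47, 0 and 0% at 0 h, 4.65 and 8.06% at 6 h, and 21.0, 16.8 and 30.3% at 12 h. Its deviation changed by -2.61 ± 2.19 points (adjusted p = 0.691).

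The window chr2:171000001-172000000 (833 calls), between Dok5, an adaptor of receptor tyrosine kinases, and Cbln4, a secreted synaptic organiser, holds 7 lncRNA genes. Its levels were 1.32, 0 and 0% at 0 h, 14.6 and 4.27% at 6 h, and 26.1, 24.0 and 21.6% at 12 h, with a change of 1.71 ± 2.46 points (adjusted p = 0.843).

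The window chr1:137000001-138000000 (570 calls) lies between Nr5a2, a nuclear receptor expressed in pluripotent cells, and Ptprc, which encodes the leukocyte protein CD45. It had 0% in all 3 untreated libraries (0 of 112 calls, up to 2.68%), 10.3 and 5.05% at 6 h, and 20.3, 24.1 and 22.9% at 12 h, a change of 0.26 ± 2.49 points (limma adjusted p = 0.980).

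The window chr1:76000001-77000000 (567 calls) lies between the anion exchanger gene Slc4a3 and the ephrin receptor gene Epha4, and its lncRNA gene Gm29065 has the promoter shown above. It had 2.17, 0 and 0% at 0 h, 0 and 8.05% at 6 h, and 19.2, 30.1 and 33.3% at 12 h, a change of 2.29 ± 2.95 points (adjusted p = 0.824).

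In all 5 windows the change of the deviation was smaller than 2 of its SE. The window chr10:66000001-67000000 between Ctnna3, a catenin abundant in the heart, and Reep3, a protein of the endoplasmic reticulum, holds Gm31416 and 605 calls but was not tested, with 9 calls in library 0 h B. Its levels were 23.9, 32.6 and 22.2% at 12 h and 0 of 110 calls at 0 h.

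The longest gene-free stretches had 4 windows each. The first, chr14:89000001-93000000, lies between the protocadherin genes Pcdh20 and Pcdh9, and its windows had pooled 12 h levels of 28.5, 20.6, 21.8 and 18.9%. The second, chr18:26000001-30000000, lies between Celf4, an RNA-binding protein of neurons, and Pik3c3, a lipid kinase of autophagy, with 18.1, 28.6, 13.7 and 20.1%. Over all stretches of 3 or 4 windows the mean 12 h level was 22.9% ± 2.62 (SD, n = 3), over stretches of 2 windows 21.7% ± 3.26 and over lone windows 22.9% ± 2.23. Relative to the library level these were -1.29 ± 0.540, -2.41 ± 1.25 and -1.20 ± 0.707 points, and differences between them were not tested.

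Calls were also split by other gene models, without a test of the differences. Gene-free calls inside lncRNA spans reached 22.8% ± 4.25 at 12 h (SD, n = 3; 4137 calls over all libraries), those inside pseudogenes 21.4% ± 1.70 (835 calls) and those outside every model 22.7% ± 2.42 (43693 calls). Minus the library level these were -1.37 ± 2.20, -2.79 ± 1.01 and -1.47 ± 0.0995 points. Windows with a lncRNA gene stood at 22.7% ± 2.29 and those without at 22.4% ± 2.97. Their 0 h levels were 0.781% ± 0.175 and 1.56% ± 0.311. From 0 h to 12 h their deviation from the library changed by -1.10 points with a lncRNA gene and by -2.19 without. The 5 windows with immunoglobulin or T cell receptor segments stood at 21.4% ± 1.82. The 3 windows without any model had 17.5, 13.0 and 13.3% in the 3 libraries of 12 h, each below its library, with 66 undeaminated of 443 calls. These windows are chr2:81000001-82000000, chr3:42000001-43000000 and chr18:18000001-19000000, they were picked out by annotation and not by level, and their 669 calls over all libraries are too few for the window test.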

How the data were processed

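ACE-seq calls of 8 libraries were used. Per the file headers, the authors deposited what Bismark's extractor 0.22.3 wrote, a line for each CpG on each read. The deposited value is a call letter for undeaminated or deaminated. GRCm38 as the build, Bismark 0.22.3 and Trim Galore are named per the submitters' processing notes. Their settings are not given in the sources used. Groups and replicate letters are from the sample titles. Gene spans and promoter sequences are RefSeq's (GRCm38.p6; 20665 autosomal protein-coding genes).

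Per library, calls were pooled over windows (95% Wilson intervals; these and the share that 3 counts would make, given for a count of 0, cover counting error only, as PCR reads are not independent molecules). Exact permutation tests, two-sided, compared the pooled values. Classes and windows were fitted with limma 3.58.1 (R 4.3.3) on the level minus the library level (all calls of the library, stacks included), over all 8 libraries with 1 factor of 3 groups, weighted by calls divided by the binomial variance, moderated, with Benjamini-Hochberg adjustment within each family and a threshold of 0.05. Classes of the same 8 libraries share their spread in this fit, so its SE and p-values for classes may be far too small. The scripts were tested on simulated data. Windows named are the testable gene-free ones, the 5 with most calls and the longest stretches. Alternatives were other scales, filters, references and windows, and each library left out. The windows, classes and lists were chosen with earlier results of these data known. No genome sequence was used here.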

Additional observations from a re-analysis of the deposited data

Results flagged for a closer look

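One 10 kb window inside the gene-free windows was left out of them as a stack of reads, though its calls are part of the library level. It lies on chromosome 2 in the 1 Mb window that starts at 98000001, with calls from position 98662264 to 98667326, and held 11825 calls. Its level was 1.56% ± 0.978 (SD, n = 3) at 0 h, 7.16% at 6 h (n = 2) and 30.01% ± 3.76 (n = 3) at 12 h. A rise from 0 h to 12 h is shared by the whole library. At 12 h the stack stood at 28.2, 27.5 and 34.3% in libraries A, B and C, against library levels of 22.3, 23.3 and 26.8%. The difference and its cause were not tested.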

How the results depend on the processing

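The direction of the pooled deviation, raw and standardised, was the same in all 17 alternatives run in percentage points. Some of them, such as a stack minimum of 1000 calls or 50 calls per window, left the values unchanged. The logit and quasi-binomial scales were not among the 17 and are given below. Leaving out 1 library gave -1.53 to -1.26 and -2.63 to -2.32 points. Other values were -0.846 with at least 200 calls per window, -2.02 as a mean over windows and -11.0 with spans of any biotype (3 windows). With libraries paired by letter, the pooled changes were again -1.39 and -2.47 points (exact sign-flip test, p = 0.25, the smallest possible). In the limma fit with a replicate block the windows without genes changed by -1.42 points, and by -2.50 standardised. In that fit 7 of the 1198 windows deviated. Same-letter libraries correlated by 1.45e-05 to 0.0637 and other-letter libraries by -0.0637 to 0.0434. With windows this close to counting error, these values cannot decide whether the letters pair the libraries. Deviating windows numbered 2 with no stack left out (1 gene-free), 1 by the quasi-binomial test and 0 to 2 without 1 library (2 without 0 h A). Classes of CpGs per read past the threshold numbered 3 with 1 call per read, 2 with spans of any biotype, 3 against distant intergenic calls, 0 on the logit scale, 0 in the quasi-binomial test (1 unadjusted) and 4 to 6 without 1 library. The classes with 3 and with 8 to 10 CpGs were lost with 1 call per read. With 3 CpGs the change was 0.387 (logit) and 0.361 (quasi-binomial); with 4 to 5 it was 0.119 with 1 call per read and 1.99 with no stack left out (adjusted p = 0.00362); with 6 to 7 it was -0.690 against distant calls and -0.0720 to 2.79 without 1 library. For windows without genes the change was -0.390 with no stack left out (adjusted p = 0.224; standardised -1.61, adjusted p = 3.89e-06), 0.00815 (logit) and 0.00822 (quasi-binomial), and standardised -0.0602 and -0.0596. Over 500 kb from genes it was -0.669 with no stack left out (adjusted p = 0.0568; standardised -1.84, adjusted p = 1.71e-06), -1.91 with spans of any biotype (adjusted p = 0.0865), -0.0827 (logit) and -0.0927 (quasi-binomial), standardised -0.145 and -0.155. Of single windows, chr2:171000001-172000000 turned to -0.134 (logit) and ranged from -0.402 to 2.71 without 1 library; chr1:137000001-138000000 to -0.604 (no weights), -0.124 (logit), -1.17 (median centring) and -1.27 (standardised), ranging from -1.27 to 1.09; chr18:81000001-82000000 to 0.464 (quasi-binomial), from -3.93 to 0.0860; chr1:76000001-77000000 to -0.581 (logit), from -0.627 to 6.57. The causes were not tested. Depth limits single windows: 5 of 209 had 20 calls in every library.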
